A study of Mus musculus with 38 samples.

Results

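The imprinted growth genes described here are Igf2, H19, Igf2r, Grb10, Cdkn1c, Phlda2, Dlk1, Meg3, Peg3 and Peg10, chosen by name. All 10 had a row in the FPKM table of 17 libraries (35976 genes), in the FPKM table of factor sets (37108 genes) and in the scRNA-seq count table (20695 genes). The cells came from mouse embryonic fibroblasts (MEFs), cells of dissected embryos that were infected with retroviruses carrying transcription factors. JGES stands for Jdp2, Glis1, Esrrb and Sall4, JGE leaves out Sall4, and JGEO and JGESO add Oct4 to each. JGES cells were sampled at day 0 and, with BMP4 at 10 ng per ml (BMP4+) or without it (BMP4−), at days 1, 3, 5 and 7, and JGE, JGEO and JGESO cells at day 7. Other MEFs received only SALL4WT, or SALL4delN12, which lacks the N-terminal stretch through which SALL4 works with the chromatin modifier NuRD, and were sampled for RNA-seq and ATAC-seq at days 1, 5, 9 and 11 and for Cut&Tag at day 6. Each condition had 1 sample, every culture was a mixture of cells, and no difference between conditions has a replicate or a test.

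Imprinted genes are expressed mainly or only from the chromosome inherited from the mother or from the father, and many of them set how fast the embryo and placenta grow. Igf2, a growth factor, and H19, a noncoding RNA, share enhancers and a control region that binds CTCF on the maternal copy, so they are often expressed in the same tissues from opposite parental copies. These data count RNA from both copies together, so nothing here measures imprinting itself.

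The 5 members on mouse chromosome 7 and the other 5 were placed with the GENCODE vM21 annotation of the mm10 genome. Igf2 lies at chr7:142650766-142666816 on the minus strand. H19 lies at chr7:142575529-142578143, downstream of Igf2 on the same strand. Cdkn1c is at chr7:143458339-143461050, Phlda2 at chr7:143501545-143503150 and Peg3 at chr7:6703892-6730431. Igf2r is at chr17:12682406-12769664, Grb10 at chr11:11930508-12038683 and Peg10 at chr6:4747306-4760517. Dlk1 (chr12:109452823-109463336) and Meg3 (chr12:109541001-109571726) are neighbours. Several share sequence with other transcripts, such as Igf2os antisense to Igf2 and Airn antisense to Igf2r. The strand setting of the bulk quantification is not given in the sources used here, so reads of such pairs cannot be told apart.

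H19 RNA is also the precursor of miR-675, and the mature sequences show what the H19 transcript carries. The RefSeq mature sequences (mm10) are shown with their seeds, bases 2 to 8, in capitals. The arms have different seeds.
mmu-miR-675-5p: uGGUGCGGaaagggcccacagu
mmu-miR-675-3p: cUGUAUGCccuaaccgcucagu

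Bulk levels are FPKM, fragments scaled to transcript length and to library size, and differences are of log2(FPKM + 1). A difference was called at 1 or more in size among genes that reached 1 FPKM in at least 1 of the libraries compared. The added 1 makes differences of low genes smaller than their ratios. Reads behind the values are not given. The steps between low FPKM values put the SALL4WT and SALL4delN12 libraries at 5.03 to 6.54 times the depth of the JGES day 0 library, and the other JGES libraries at 0.883 to 1.06 times. FPKM values of JGES are therefore the coarser ones, and Phlda2 and Meg3, the members with the lowest levels, are the most exposed to it.

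The JGES time course asked how BMP4 changes the course of reprogramming. H19 was called higher in BMP4+ than in BMP4− cells at all 4 days, Igf2 at days 3, 5 and 7, Peg10 at days 1, 5 and 7 and Peg3 at days 1, 3 and 5. At day 1, 3 members were called higher and none lower, where 3.75% of all genes tested were called higher and 5.72% lower. At day 3, 3 were called higher and none lower (6.81% and 8.99% of all genes). At day 5, 6 were higher and none lower (8.78% and 13.2%), and at day 7, 5 were higher and none lower (10.3% and 13.8%). The median difference of the members was 0.59, 0.63, 1.01 and 0.94 on the log2 scale at days 1, 3, 5 and 7, and that of all genes tested was -0.02, -0.09, -0.18 and -0.14. At day 5, scaling the libraries to the same median ratio raises the differences by a median of 0.16 over the genes tested.

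Igf2, the fetal growth factor, was at 1176 FPKM at day 0 and at 746, 504, 412 and 470 FPKM in BMP4− cells at days 1, 3, 5 and 7. In BMP4+ cells it was at 1224, 2030, 2187 and 1978 FPKM. The BMP4− libraries were all below day 0 and the BMP4+ libraries all above it, with log2 differences between them of 0.71, 2.01, 2.41 and 2.07. H19 was at 3696 FPKM at day 0 and at 3134, 2762, 2745 and 2917 FPKM in BMP4− cells. In BMP4+ cells it was at 6394, 6740, 7581 and 8463 FPKM, with log2 differences of 1.03, 1.29, 1.47 and 1.54. The ranges of the 2 arms did not overlap for H19, and H19 ranked between 6 and 13 among all genes in every JGES library. How many of all genes separate in this way was not counted, here or for Peg10 below.

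**Figure D1:**
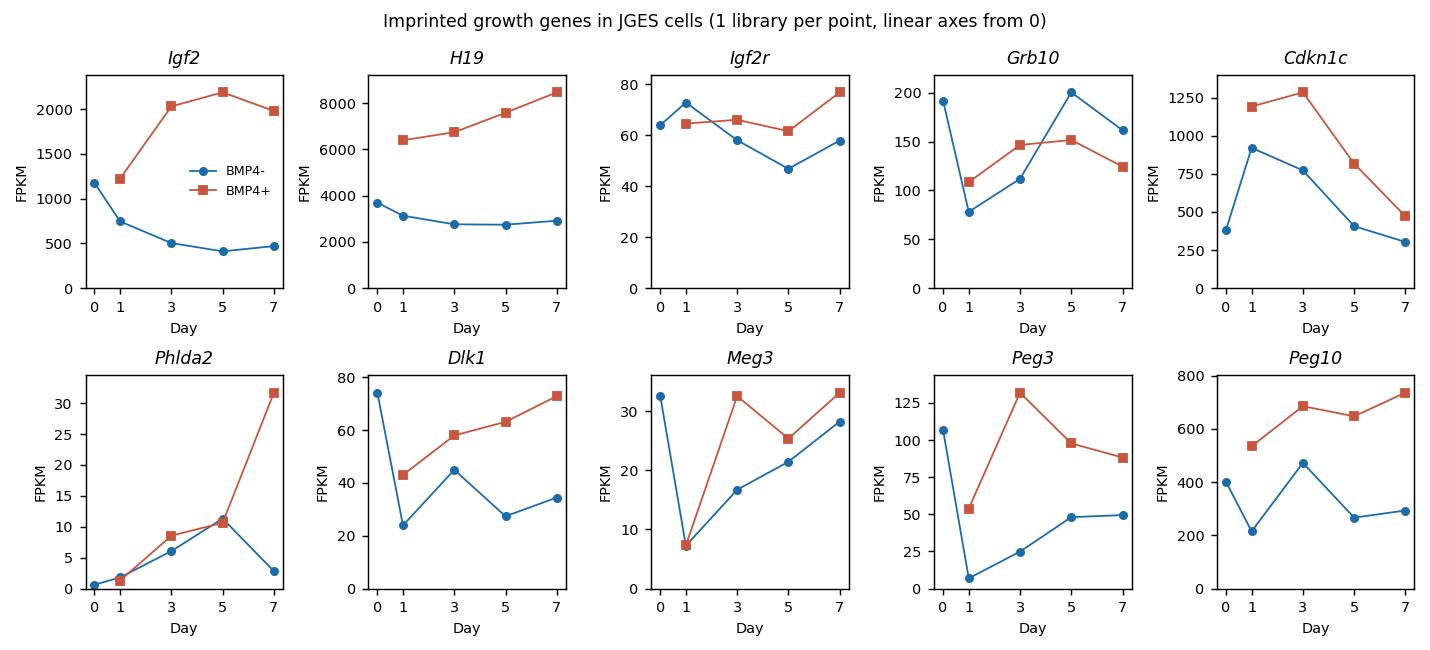
FPKM (linear axes from 0) of the 10 genes in JGES cells against the day, with circles for BMP4− and squares for BMP4+, 1 library per point and no error bars. Igf2 and H19 separate from day 1 on, while Phlda2 stands apart at day 7 only, at 31.7 FPKM with BMP4.

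Peg3, a zinc finger protein expressed from the paternal copy, gave the largest early difference. It was at 107 FPKM at day 0 and at 6.89, 24.9, 48.1 and 49.4 FPKM without BMP4, against 53.8, 132, 97.7 and 88.2 FPKM with it. Day 1 without BMP4 was the lowest of the 17 libraries for Peg3, and the log2 differences were 2.80, 2.36, 1.01 and 0.82. Peg10, a protein derived from a retrotransposon and needed for placenta, was at 401 FPKM at day 0. It was at 215, 472, 266 and 293 FPKM without BMP4 and at 535, 685, 647 and 736 FPKM with it, so all BMP4+ values were above all BMP4− values. Its log2 differences were 1.31, 0.54, 1.28 and 1.33.

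Dlk1, a Notch-related membrane protein, was at 74.2 FPKM at day 0, at 23.9, 45.0, 27.4 and 34.5 FPKM without BMP4 and at 43.0, 58.0, 63.2 and 72.9 FPKM with it. It was called higher at days 5 and 7 (1.18 and 1.06). Its neighbour Meg3, a maternally expressed noncoding RNA, was at 32.6 FPKM at day 0, at 7.25, 16.7, 21.4 and 28.2 FPKM without BMP4 and at 7.29, 32.5, 25.3 and 33.1 FPKM with it. Meg3 was called at none of the days, with differences of 0.01, 0.92, 0.23 and 0.22.

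The members that restrain growth went separate ways. Cdkn1c, an inhibitor of the cell cycle kinases, was at 382 FPKM at day 0, at 921, 773, 407 and 304 FPKM without BMP4 and at 1192, 1285, 817 and 472 FPKM with it. It was highest at days 1 and 3 in both arms and was called at day 5 only (1.00). Phlda2, which limits placental growth, was at 0.619 FPKM at day 0, at 1.80, 6.05, 11.3 and 2.81 FPKM without BMP4 and at 1.29, 8.55, 10.6 and 31.7 FPKM with it. The difference was 3.10 at day 7 and between -0.29 and 0.44 at the earlier days. Grb10, an adaptor that dampens insulin and IGF receptor signals, was at 192 FPKM at day 0, between 78.1 and 200.3 FPKM without BMP4 and between 108 and 152 FPKM with it. Igf2r, the receptor that removes IGF2, kept between 46.8 and 76.7 FPKM in all 9 JGES libraries. Neither was called at any day.

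Against the shared day 0 library, BMP4− cells had 1, 2, 1 and 1 members higher and 4, 2, 3 and 3 lower at days 1, 3, 5 and 7. Of all genes, 11.8%, 16.4%, 20.2% and 22.2% were higher and 9.28%, 10.5%, 10% and 10.4% lower. BMP4+ cells had 1, 2, 3 and 2 members higher and 1, 0, 0 and 0 lower, with 9.78%, 13.7%, 14.9% and 17.5% of all genes higher and 9.05%, 9.98%, 9.85% and 9.47% lower. Both arms use the same day 0 library. The member higher at day 7 in BMP4− cells was Phlda2 (2.81 against 0.619 FPKM), which a filter of 5 FPKM leaves untested. Fibroblast markers summed to 1268 FPKM at day 0 and pluripotency markers to 5.85 FPKM, with 5 of the 6 pluripotency markers at 0.

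The markers of other cell types also differed between the arms. The summed level of 6 fibroblast markers was 309, 87.4, 56.5 and 75.8 FPKM in BMP4− cells at days 1, 3, 5 and 7, and 377, 331, 543 and 977 FPKM in BMP4+ cells. None of the 6 was at 0. The 6 placental markers summed to between 40.5 and 78.3 FPKM without BMP4 and between 80.7 and 245 FPKM with it, with Hand1 at 0 in BMP4− cells of days 1 and 7 and in BMP4+ cells of day 1. The 6 pluripotency markers summed to between 64.4 and 949 FPKM without BMP4 and between 19.1 and 42.4 FPKM with it. The 7 primitive endoderm markers summed to 13.3, 28.9, 44.6 and 83.9 FPKM without BMP4 at days 1, 3, 5 and 7 and to 14.5, 14.3, 28.1 and 163 FPKM with it, with Sox17 at 0 at day 1 in both arms. Krt18 was the highest placental marker, at 24.2 to 48.2 FPKM and 58.7 to 148 FPKM. Their part in the results of the members was not tested, and in bulk samples fewer cells of a type and less RNA per cell cannot be told apart.

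Of 27 imprinted genes that lie beside the members, 20 were tested at day 7, 3 were higher and 2 lower, where 10.3% of all genes tested were higher and 13.8% lower, as for the other lists here. The largest difference was that of Ins2, an insulin gene next to Igf2, at 1211 FPKM with BMP4 and 38.6 FPKM without (4.94). Of 26 imprinted genes elsewhere, 21 were tested and 2 were higher, Dcn (2.37) and Gnas (1.10), and 2 lower, Peg12 (-1.82) and Gab1 (-1.02). Of 17 genes of the IGF axis, 16 were tested, 5 were higher and none lower, led by the IGF binding proteins Igfbp1 (5.80), Igfbp7 (3.05) and Igfbp6 (2.31). Of 10 genes that set or maintain imprints, none was higher and 6 were lower. Among these were Dppa3 (-4.47), Dnmt3l (-3.88) and Zfp57 (-1.73), the last a zinc finger protein that protects imprinted methylation. The median of that list was -1.21 in these JGES libraries. In JGEO at day 7, Dppa3 (10.9 FPKM without and 15.2 FPKM with BMP4), Dnmt3l (5.004 and 13.6 FPKM) and Zfp57 (14.8 and 20.9 FPKM) did not fall. In JGESO, Dppa3 (11.2 and 9.33 FPKM) and Dnmt3l (19.1 and 14.3 FPKM) were at lower values with BMP4. Zfp57 was at 9.19 and 12.7 FPKM there. In JGE, Zfp57 was at 12.3 and 9.39 FPKM, and Dppa3 and Dnmt3l were at 0. The reason was not tested.

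The factor sets were compared to ask whether the response to BMP4 needs Sall4 or Oct4. Igf2 and H19 were higher with BMP4 in all 4 sets at day 7, and were the only members called in all 4. In JGE, 6 members were called higher and none lower, where 4.28% of all genes were higher and 4.78% lower. In JGES, 5 were higher and none lower (10.2% and 13.7%), in JGEO 2 and none (2.26% and 1.95%), and in JGESO 2 and none (5.29% and 3.52%). The members' median was 1.57, 0.94, 0.44 and 0.45 in the order JGE, JGES, JGEO and JGESO, against -0.05, -0.13, 0.04 and 0.01 for all genes tested. No test of the difference between sets could be made.

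H19 was at 821 FPKM in JGE without BMP4 and at 5112 FPKM with it, at 570 and 1269 FPKM in JGEO, and at 4723 and 11134 FPKM in JGESO. The log2 differences of H19 were 2.64, 1.15 and 1.24 in these sets and 1.54 in JGES. Igf2 was at 177 and 968 FPKM in JGE, at 137 and 293 FPKM in JGEO, and at 626 and 1381 FPKM in JGESO. Its log2 differences were 2.45, 1.09 and 1.14, and 2.08 in JGES. For both genes the difference was smallest in the sets with Oct4.

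Peg10 had the largest difference of any member in JGE, from 49.4 to 433 FPKM (3.11), and was at 166 and 188 FPKM in JGEO (0.18). Dlk1 was higher with BMP4 in JGE, 33.4 against 8.47 FPKM (1.86), and was at 50.3 FPKM with BMP4 against 75.0 FPKM without in JGESO (-0.57). Phlda2 was at 7.68 against 1.22 FPKM in JGE (1.97), and at 13.2 against 14.9 FPKM in JGESO (-0.17). Grb10 was called in JGE only (1.27). Cdkn1c, Igf2r, Meg3 and Peg3 were called in none of the sets.

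**Figure D2:**
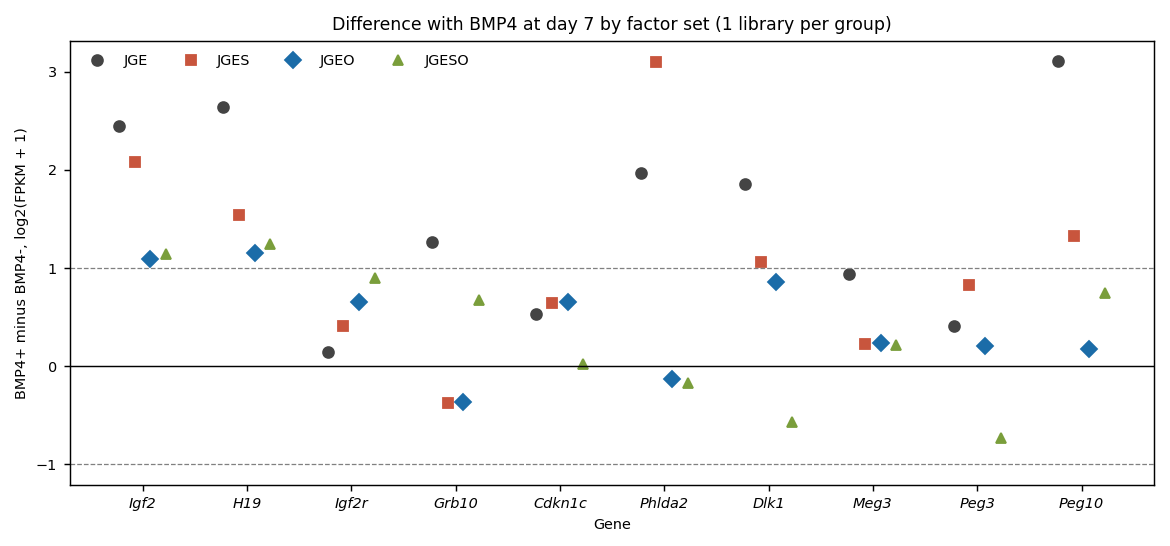
Difference of log2(FPKM + 1) between BMP4+ and BMP4− cells at day 7 for each gene, with 1 symbol per factor set, 1 library per group and dashed lines at the differences of 1 that were called. Igf2 and H19 lie above 1 in all 4 sets, and Peg10 spans from 0.18 in JGEO to 3.11 in JGE.

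The summed level of the fibroblast markers was 619 FPKM without and 283 FPKM with BMP4 in JGE, 321 and 186 FPKM in JGEO, and 383 and 782 FPKM in JGESO, with all 6 above 0. The placental markers summed to 45.2 and 52.8 FPKM in JGE and 27.7 and 37.1 FPKM in JGEO (Hand1 at 0 without BMP4). In JGESO they summed to 224 and 426 FPKM. The 6 endothelial markers summed to 16.2 and 32.6 FPKM in JGE and 8.99 and 22.5 FPKM in JGEO. In JGESO the endothelial markers summed to 15.3 and 30.6 FPKM, with Emcn at 0 with BMP4. The pluripotency markers summed to 14.1 and 8.71 FPKM in JGE, 333 and 501 FPKM in JGEO, and 460 and 278 FPKM in JGESO, with Dppa5a and Tdgf1 at 0 in both JGE libraries and Nanog and Utf1 at 0 in JGE with BMP4. The primitive endoderm markers summed to 26.4 and 18.5 FPKM in JGE and 47.6 and 62.0 FPKM in JGEO. In JGESO the primitive endoderm markers summed to 399 and 308 FPKM, and none was at 0 in these libraries. Their part in the results of the members was not tested. Ins2 was at 65.8 FPKM in JGE without BMP4 and at 1049.8 FPKM with it (3.98).

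Without BMP4, the sets with Sall4 had higher levels of most members than those without. Between JGES and JGE, 7 members were higher and 1, Cdkn1c (-1.47), was lower, where 20.1% of all genes were higher and 16.9% lower. Between JGESO and JGEO, 7 members were higher and none lower (7.48% and 20.7%), and Cdkn1c was among the higher ones (816 against 244 FPKM, 1.74), opposite to JGES and JGE. H19 (1.79 and 3.05), Igf2 (1.37 and 2.18), Dlk1 (1.87 and 3.28), Meg3 (1.92 and 1.47) and Peg3 (2.36 and 1.75) were called higher in both. From JGE to JGES, the fibroblast markers summed to 619 and 73.9 FPKM and the pluripotency markers to 14.1 and 925 FPKM. The 6 macrophage markers summed to 66.1 and 5.42 FPKM, with C1qa, C1qb, Adgre1 and Csf1r at 0 in JGES. The primitive endoderm markers summed to 26.4 and 81.8 FPKM. From JGEO to JGESO, the 7 primitive endoderm markers summed to 47.6 and 399 FPKM, with none at 0, and the placental markers to 27.7 and 224 FPKM. Their part in the results was not tested. Adding Oct4 to JGE left 2 members higher and 2 lower (10.2% and 11.9%), and adding it to JGES left 3 higher and 3 lower (16.8% and 32.7%). The JGES libraries are the same as in the time course, labelled as total RNA where the labels of the other sets name polyA RNA, and the libraries of the other sets had 5.31 to 7.36 times the depth of JGES without BMP4. JGES against another set therefore also compares experiments, and these cannot be told apart.

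The cultures with SALL4 alone were compared to ask what SALL4 does when it cannot work with NuRD. H19, Igf2 and Cdkn1c were higher with SALL4delN12 than with SALL4WT at all 4 days. At day 1, 3 members were higher and 1 lower, where 4.18% of all genes were higher and 5.63% lower. At day 5, 4 were higher and none lower (4.67% and 5.19%), at day 9, 5 and none (6.09% and 5.75%), and at day 11, 4 and none (6.55% and 6.58%). The members' median was 0.73, 0.65, 1.03 and 0.79 against -0.03, -0.01, 0.03 and 0.01 for all genes tested.

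H19 was at 450 FPKM at day 1 and at 934, 623 and 1038 FPKM at days 5, 9 and 11 with SALL4WT. With SALL4delN12 it was at 1440 FPKM at day 1 and at 9915, 8926 and 9920 FPKM later, and had the highest FPKM of all genes at days 5 and 9. The log2 differences were 1.68, 3.41, 3.84 and 3.26, a 14.3-fold difference at day 9. Igf2 was at 358, 107, 107 and 169 FPKM with SALL4WT and at 758, 1542, 1671 and 1623 FPKM with SALL4delN12. Its differences were 1.08, 3.83, 3.95 and 3.25, with a 15.6-fold difference at day 9. For both genes every SALL4delN12 library was above every SALL4WT library. The share of all genes separated in this way was not counted, here or for Cdkn1c below.

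Igf2 moved in opposite directions from day 1 in these cultures. With SALL4WT it was lower than at day 1 by log2 differences of -1.73, -1.73 and -1.08 at days 5, 9 and 11. With SALL4delN12 it was higher by 1.02, 1.14 and 1.10. The difference between these courses was not tested.

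Cdkn1c was at 30.5, 15.7, 14.7 and 43.4 FPKM with SALL4WT and at 126, 81.3, 164 and 141 FPKM with SALL4delN12, with no overlap between the forms. Its differences were 2.01, 2.30, 3.39 and 1.68. Peg3 was at 11.9, 20.4, 13.2 and 37.2 FPKM with SALL4WT and at 21.9, 71.7, 54.4 and 57.2 FPKM with SALL4delN12, and was called at days 5 and 9 (1.76 and 1.96). Meg3 was at 1.41, 0.608, 0.816 and 1.71 FPKM with SALL4WT and at 3.69, 1.01, 1.67 and 5.52 FPKM with SALL4delN12, and was called at day 11 (1.27). Peg10 was lower with SALL4delN12 at day 1, at 2.00 against 5.76 FPKM (-1.17), and higher at day 9, at 76.6 against 33.7 FPKM (1.16).

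Dlk1, Igf2r, Grb10 and Phlda2 were called at no day. Dlk1 was below its day 1 level in both forms at the later days, at 4.42 to 6.75 FPKM with SALL4WT and at 3.60 to 4.69 FPKM with SALL4delN12. Igf2r was at 48.8 to 77.1 FPKM with SALL4WT and at 61.8 to 86.8 FPKM with SALL4delN12. Grb10 was at 25.4 to 74.2 FPKM and at 48 to 62.8 FPKM. Phlda2 was at 0.801 to 5.09 FPKM and at 1.86 to 4.36 FPKM.

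**Figure D3:**
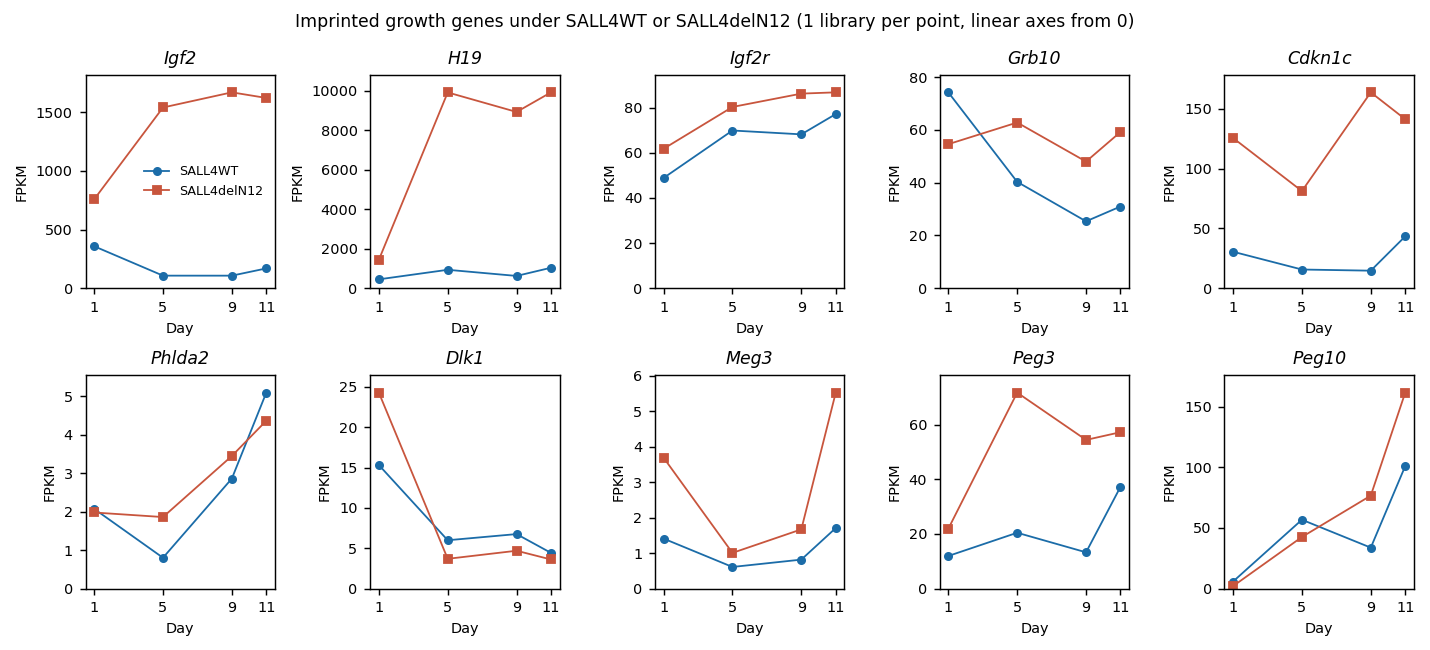
FPKM (linear axes from 0) of the 10 genes against the day, with circles for SALL4WT and squares for SALL4delN12, 1 library per point and no error bars. H19 stays between 450 and 1038 FPKM with SALL4WT and reaches 9915 to 9920 FPKM at days 5 and 11 with SALL4delN12, while the curves of Igf2r lie close together.

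Against their own day 1, SALL4WT libraries had 2, 1 and 3 members higher and 2, 4 and 3 lower at days 5, 9 and 11. Of all genes, 6.27%, 7.82% and 11.5% were higher and 4.19%, 6.51% and 8.76% lower. SALL4delN12 libraries had 4 higher at each of these days and 2, 1 and 1 lower, with 6.16%, 7.74% and 10.4% of all genes higher and 2.91%, 3.54% and 4.61% lower. Peg10 was the member with the largest differences from day 1, of 3.09, 2.36 and 3.91 with SALL4WT and of 3.86, 4.69 and 5.76 with SALL4delN12.

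Ins2, next to Igf2, went against it in these cultures. It was at 10.3 FPKM with SALL4WT and 2.15 FPKM with SALL4delN12 at day 5 (-1.84), and at 79.9 and 0.580 FPKM at day 11 (-5.68). The genes named next are single picks by their differences. They come from lists of 26 imprinted genes elsewhere, 17 genes of the IGF axis and 10 genes that set or maintain imprints. They are not read as a result about those lists. The shares of all genes called at days 5 and 11 stand with the members above. Among imprinted genes elsewhere, Mest was higher at days 5 and 11 (1.71 and 1.15) and Dcn lower (-2.07 and -1.66). In the IGF axis, the RNA-binding protein gene Igf2bp1 was higher at days 5 and 11 (1.4 and 1.63), and Irs1 was lower (-1.04 and -1.14). Of the 10 genes that set or maintain imprints, none was called at day 5, and Uhrf1 was higher at day 11 (1.66).

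Markers of other cell types differed here too. The 6 placental markers summed to 97.8 to 132 FPKM with SALL4WT and to 504 to 655 FPKM with SALL4delN12, with none at 0, of which Krt18 was 82.0 to 104 FPKM and 316 to 478 FPKM. Hba-a1 was at 3.76 and 26.5 FPKM with SALL4WT and at 162 and 88.6 FPKM with SALL4delN12 at days 9 and 11. It was the highest of the 6 erythroid markers in each of these libraries, and no more than 2 of the 6 reached 1 FPKM. These values are those of 1 gene and are not read as a level of that list. The 6 macrophage markers summed to 26.3 to 97.2 FPKM and to 163 to 387 FPKM, with none at 0. The 7 primitive endoderm markers summed to 20.3, 16.3, 19.8 and 24.7 FPKM with SALL4WT and to 15.2, 17.9, 63.5 and 179 FPKM with SALL4delN12, with Sox17 at 0 at days 5 and 9 of SALL4WT and at day 1 of SALL4delN12. The 6 skeletal muscle markers summed to 9.91 to 20.6 FPKM and to 1.66 to 8.51 FPKM, with Myf5 at 0 in all 8 libraries. Fibroblast markers summed to 1034 to 1904 FPKM and to 1804 to 2249 FPKM, with none at 0. Their part in the results of the members was not tested.

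Across the 17 libraries, the genes most like each member in log2(FPKM + 1) were sought among 8962 genes with a mean FPKM of at least 5. Pearson's r is given as a description, since the libraries share days, factors and, within each experiment, similar depths. Nearest to H19 were Mir675 (0.99), which lies within H19, Igf2os (0.90) and LOC108167467 (0.89), and nearest to Igf2 were Igf2os and LOC108167467 (0.89 each) and Sik1 (0.88). Nearest to Meg3 was Rian (0.98), to Peg3 was Peg3os (0.98), to Peg10 was P3h2 (0.95) and to Cdkn1c was Zfp362 (0.96). Nearest to Grb10 was Tnrc6a (0.96), to Dlk1 was Cdk18 (0.90), to Phlda2 was Slc9a3r1 (0.88) and to Igf2r was Perp (0.81). Among the members, H19 and Igf2 had an r of 0.88, Grb10 and Meg3 of 0.90, and Dlk1 and Meg3 of 0.86, while Igf2r had -0.51 with both Dlk1 and Grb10. Meg3 was at 0.608 to 5.52 FPKM in the cultures with SALL4 alone and at 7.25 to 33.1 FPKM in JGES cells. Grb10 was at 25.4 to 74.2 FPKM and at 78.1 to 200.3 FPKM. The part of this split between experiments in the r values was not tested.

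scRNA-seq of JGES cells at day 7 gave 11335 BMP4+ cells and 8685 BMP4− cells, with medians of 21205 and 12738 UMIs (unique molecular identifiers, which count molecules) per cell. The samples shared 2 barcodes. Cell types are the authors' labels: 1453 endothelial, 7125 intermediate, 2372 ParE and 385 placenta-like cells with BMP4, and 507 endothelial, 6211 intermediate, 142 ParE and 1825 pluripotent cells without it. The labels were checked against marker sums. The 6 endothelial markers summed to 610 CPM in BMP4+ and 285 CPM in BMP4− endothelial cells, where the pluripotency markers summed to 4.15 and 306 CPM. In BMP4− endothelial cells the haemoglobin gene Hba-a1, a marker of red blood cells, was at 352 CPM, above each endothelial marker (the highest, Kdr, at 141 CPM), and it was at 17.8 CPM in BMP4+ endothelial cells. The 7 primitive endoderm markers summed to 1383 CPM in BMP4+ and 1001 CPM in BMP4− ParE cells, where the pluripotency markers summed to 23.0 and 876 CPM. In BMP4− cells most of these pluripotency sums was Dppa5a, at 253 CPM in endothelial, 809 CPM in ParE and 261 CPM in intermediate cells. The other 5 pluripotency markers were between 2.97 and 28.7 CPM in BMP4− endothelial and between 3.70 and 25.4 CPM in BMP4− ParE cells. The 6 pluripotency markers summed to 7156 CPM in pluripotent cells and the 6 placental markers to 2771 CPM in placenta-like cells. ParE is read here as the primitive endoderm-like cells of the study. Levels are CPM, UMIs of a gene scaled to the same total over the same cells, with exact 95% Poisson intervals that cover counting error only.

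Over all cells, 6 members were higher with BMP4 by a log2(CPM + 1) difference of at least 1 and none was lower, where 23.8% of all genes were higher and 6.07% lower. The median gene was 0.47 higher, so differences are given here with their values after scaling to the same median ratio. Peg10 (2.99, scaled 2.49), Phlda2 (2.83, scaled 2.33), Cdkn1c (2.72, scaled 2.21), Peg3 (2.32, scaled 1.81) and Igf2r (1.70, scaled 1.20) kept a difference of over 1. Igf2 (1.33, scaled 0.84) did not. Of the 59929 Phlda2 UMIs with BMP4, 42752 were in the 385 placenta-like cells, and in intermediate cells Phlda2 had 28.0 CPM with BMP4, against 35.0 CPM in the other sample (-0.31, scaled -0.73). H19 was at 2703 CPM (2697 to 2709) with BMP4 and 1947 CPM (1939 to 1954) without (0.47, scaled -0.04), and Meg3 at 372 and 504 CPM (-0.44, scaled -0.95). In the bulk JGES libraries of day 7, H19 was at 8463 FPKM with BMP4 and 2917 FPKM without, and was called higher. The bulk and scRNA-seq readouts of H19 differ, and the reason was not tested. Over all cells, fibroblast markers summed to 647 CPM with BMP4 and 82.1 CPM without, primitive endoderm markers to 360 and 48.8 CPM, placental markers to 669 and 128 CPM and pluripotency markers to 18.6 and 2004 CPM, with none at 0. Their part was not tested.

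**Figure D4:**
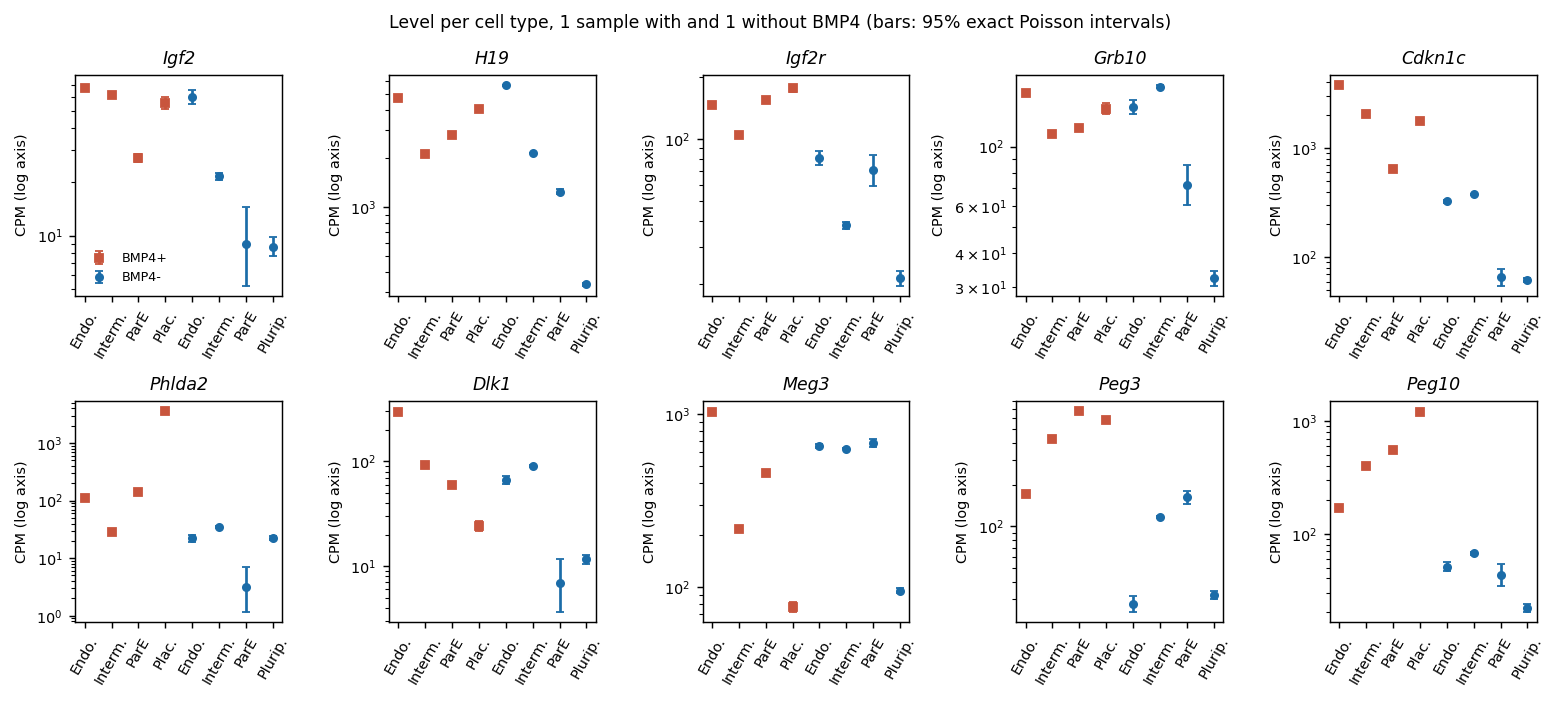
CPM (log axes) of the 10 genes by cell type, with squares for the BMP4+ sample and circles for the BMP4− sample, and bars for exact 95% Poisson intervals. Phlda2 stands at 3599 CPM in placenta-like cells, and H19 is lowest in pluripotent cells, at 334 CPM.

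In intermediate cells, the largest group in both samples, 5 members were higher and 1 lower with BMP4 (23.6% and 5.46% of all genes). Cdkn1c was at 2056 CPM (2049 to 2063) with BMP4 and 379 CPM (375 to 383) without, and Peg10 at 397 CPM (394 to 399.9) and 66.8 CPM (65.1 to 68.6). Peg3 was at 426 CPM (423 to 429) and 117 CPM (114 to 119). Meg3 was the member called lower, at 218 CPM (215 to 219.9) and 631 CPM (625 to 636), a difference of -1.53 (scaled -1.96). H19 differed by -0.02 (scaled -0.45). Fibroblast markers summed to 964 CPM in BMP4+ and 107 CPM in BMP4− intermediate cells, with none of 6 at 0. Pluripotency markers summed to 19.7 and 363 CPM (Dppa5a 4.48 and 261 CPM) and placental markers to 493 and 148 CPM (Krt18 348 and 114 CPM), and the part of these markers was not tested.

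In endothelial cells, 5 members were higher and none lower (19.4% and 4.81%), between groups whose content differed, with Hba-a1 at 17.8 CPM with BMP4 and 352 CPM without. Cdkn1c was at 3793 CPM (3773 to 3814) with BMP4 and 326 CPM (313 to 338) without (3.54, scaled 3.07). Dlk1 was at 298 CPM (293 to 304) and 66.6 CPM (61.2 to 72.4), a difference of 2.15 (scaled 1.68). Peg3 was at 171 CPM (166 to 175) and 27.7 CPM (24.2 to 31.5), a difference of 2.58 (scaled 2.12). H19 was at its highest here in both samples, at 4732 CPM (4709 to 4755) with BMP4 and 5665 CPM (5614 to 5716) without. Pluripotency markers summed to 4.15 CPM with BMP4 and 306 CPM without in these cells (Dppa5a 0.372 and 253 CPM) and placental markers to 325 and 106 CPM (Krt18 157 and 87.3 CPM), with none at 0, and their part was not tested.

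In ParE cells, 8 members were higher and none lower (22.7% and 5.88%), of which H19 (1.17, scaled 0.65) and Igf2r (1.11, scaled 0.60) were not past 1 after scaling. Only 142 BMP4− cells stand behind this comparison. Peg10 was at 555 CPM (550 to 561) with BMP4 and 43.4 CPM (34.5 to 53.8) without (3.65, scaled 3.14). Cdkn1c was at 641 CPM (635 to 647) and 66.1 CPM (55.0 to 78.8), a difference of 3.26 (scaled 2.75). Phlda2 was at 144 CPM (141 to 147) with BMP4 and had 6 UMIs in all without it (3.17 CPM, 1.17 to 6.91). Meg3 was at 457 CPM (452 to 463) with BMP4 and 682 CPM (645 to 720) without (-0.58, scaled -1.09). Pluripotency markers summed to 23.0 CPM with BMP4 and 876 CPM without in these cells, with none at 0, of which Dppa5a was 16.6 and 809 CPM. Placental markers summed to 918 and 464 CPM, nearly all of it the keratins Krt8 (359 and 106 CPM) and Krt18 (538 and 351 CPM). The other 4 were between 0.358 and 11.5 CPM with BMP4 and at most 4.76 CPM without, with Hand1 at 0 there. Their part was not tested.

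Placenta-like cells were seen with BMP4 only. They had the highest level of Phlda2 of any cell type, 3599 CPM (3565 to 3634), against 144 CPM in ParE, 109 CPM in endothelial and 28.0 CPM in intermediate cells of the same sample. Peg10 was also highest there, at 1216 CPM (1196 to 1236). Dlk1 and Meg3 were lowest among the BMP4+ types there, at 24.2 and 77.1 CPM. Pluripotent cells, seen without BMP4 only, had the lowest level of H19 (334 CPM), Igf2 (8.66 CPM), Igf2r (21.2 CPM), Grb10 (32.4 CPM), Cdkn1c (61.6 CPM) and Peg10 (21.8 CPM) among all 8 groups of cells. The intervals of Igf2 in pluripotent (7.63 to 9.79 CPM) and BMP4− ParE cells (5.24 to 14.4 CPM) overlap, as do those of Cdkn1c (58.8 to 64.5 and 55.0 to 78.8 CPM).

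Shares of cells with at least 1 UMI were taken after thinning each cell to 4000 UMIs, and no cell had fewer. For H19 the share was 99.4% (98.8 to 99.7) in BMP4+ endothelial cells, 100% unthinned, and 58.4% (56.1 to 60.7) in pluripotent cells, 91.6% unthinned. For Phlda2 it was 75.3% (70.7 to 79.6) in placenta-like cells, 88.1% unthinned, and 6.02% (5.48 to 6.60) in BMP4+ intermediate cells, 20.4% unthinned. The lowest share of Phlda2 was 2.11% (0.438 to 6.05) in BMP4− ParE cells. Free RNA can give shares of this size in droplets, and they are not read as expression. Within BMP4+ endothelial cells, thinned UMIs of Dlk1 and Meg3 had an r of 0.60 over 1453 cells of 1 sample, the highest of the 8 groups of cells for this pair. It was 0.17 to 0.34 in the other BMP4+ types and 0.04 to 0.29 in the BMP4− types.

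Igf2 needs a caution in these counts. Its level was 53.8 CPM over BMP4+ cells, rank 2739 among the genes, while it ranked 21 in the bulk library of BMP4+ day 7. The GENCODE gene Gm49394 shares exons with Igf2 on the same strand, so counts could be split or dropped there, and Igf2 is uncertain in scRNA-seq.

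ATAC-seq, which maps open chromatin, and Cut&Tag, which maps where a protein or histone mark sits and was done at day 6 only, a day with no RNA-seq or ATAC-seq library, add a readout at the members' starts. A peak was counted within 2 kb of an annotated start, and its score grows as the p-value of the peak caller falls. In MEFs all 10 members had an ATAC-seq peak, where 61% of 27766 genes had one. With SALL4WT, 8, 9, 8 and 9 members had a peak at days 1, 5, 9 and 11 (54.5%, 58.6%, 58.1% and 58.3% of genes). With SALL4delN12, 8, 7, 7 and 9 had one (53.1%, 54.6%, 56.1% and 56.2%).

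Phlda2 had a peak in MEFs (score 125), at all 4 days with SALL4WT (103, 140, 94.8 and 86.8) and at no day with SALL4delN12. A peak at all 4 SALL4WT days and at no SALL4delN12 day, with or without one in MEFs, was found for 0.335% of genes. Only the highest-scoring peak of each library was kept, so positions can be compared for these peaks alone. Those of SALL4WT days 5 and 9 overlapped, and those of days 1 and 11 overlapped none of the others kept for SALL4WT. Dlk1 had a peak in MEFs (156) and, of the 8 other libraries, in SALL4delN12 day 11 only (58.8). A MEF peak without one in the remaining 7 libraries was found for 2.06% of genes. Peg3 had the highest scores of any member, 1943 in MEFs and between 324 and 1493 with SALL4WT. The promoter of Phlda2 (RefSeq promoter table, mm10, minus strand, chr7:143502525-143502774) is shown because it holds part of the peak of SALL4WT day 11, and was picked after its peaks had been seen. These bases precede the start of the RefSeq entry and lie inside the GENCODE gene, downstream of the GENCODE start at 143503150 from which peaks were counted. Capitals mark the part inside the peak of SALL4WT day 11. It has 21 CpG and 68.8% G and C.
Phlda2 promoter: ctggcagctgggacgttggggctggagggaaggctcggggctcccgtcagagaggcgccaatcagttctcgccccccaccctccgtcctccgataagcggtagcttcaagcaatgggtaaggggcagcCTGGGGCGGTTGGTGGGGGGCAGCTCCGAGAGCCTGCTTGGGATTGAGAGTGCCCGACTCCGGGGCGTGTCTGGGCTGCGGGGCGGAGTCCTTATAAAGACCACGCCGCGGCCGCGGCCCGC

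SALL4 itself had a Cut&Tag peak at 7 members with SALL4WT and at 3 with SALL4delN12, where 48.4% and 37.3% of all genes had one. Within 1 kb these counts were 4 and 2, and at a score of at least 100 they were 3 and 3. Peg3 (310 and 260), Peg10 (310 and 144) and Grb10 (66.4 and 118) had a peak with both forms, as 33.4% of genes did. Cdkn1c (123), Phlda2 (79.3), H19 (63.6) and Igf2r (59.5) had one with SALL4WT only, as 15% of genes did. No member had a peak with SALL4delN12 only, as 3.89% of genes did. The histone mark H3K27ac, found at active promoters and enhancers, had a peak at 4 members with SALL4WT and at 7 with SALL4delN12 (41.7% and 51.2% of genes), and at 1 and 4 at a score of at least 100. Igf2 (64.9), Meg3 (94.7) and Phlda2 (52.6) had it with SALL4delN12 only, as 10.6% of genes did. The H3K27ac lists held 19841 peaks with SALL4WT and 45599 with SALL4delN12.

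Around H19, the open sites changed between the forms. At its start, the score was 432 in MEFs, 56.4, 94.8 and 69.9 at days 1, 5 and 11 with SALL4WT, and 127, 144, 114 and 136 at days 1, 5, 9 and 11 with SALL4delN12. A site 2122 bases upstream, chr7:142580265-142580418, had an ATAC-seq peak at all 4 SALL4WT days (140, 72.8, 78.2 and 118) and with SALL4delN12 at day 1 only (60.3). It had none in MEFs. The SALL4 Cut&Tag peak of SALL4WT (63.6) covers it, and SALL4delN12 had none. A neighbouring ATAC-seq peak, from 3531 bases upstream in MEFs (58.2), was also found with SALL4WT at days 5 and 11 (62.8 and 106). No SALL4delN12 library had that neighbouring peak. A site 48416 bases upstream, chr7:142626559-142626723, had an ATAC-seq peak with SALL4delN12 at days 1, 5 and 11 (91.0, 54.8 and 77.6), an H3K27ac peak (107) and a SALL4 peak (144). No SALL4WT or MEF library had a peak there. The sites 2122 and 48416 bases upstream were picked after their peaks had been seen.

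The sequences of both sites are printed on the minus strand, the strand of H19, from the mm10 genome. In the first, capitals mark a match to letters of the CTCF core motif, CCGC, 2 bases of any kind, GG, 1 base of any kind and GGCAG, searched on both strands. That motif was in 0.0852% of 89214 windows of the same length centred on the ATAC-seq peaks of the same library. In the second, capitals mark TATC, which is GATA on the other strand and was in 38.6% of 78491 such windows. A match is a description of letters and shows no binding. The first site has 11 CpG and the second 3.
site 2 kb upstream of H19: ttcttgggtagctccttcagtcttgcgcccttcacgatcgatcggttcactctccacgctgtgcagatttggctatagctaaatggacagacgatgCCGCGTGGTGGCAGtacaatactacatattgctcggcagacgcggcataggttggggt
site 48 kb upstream of H19: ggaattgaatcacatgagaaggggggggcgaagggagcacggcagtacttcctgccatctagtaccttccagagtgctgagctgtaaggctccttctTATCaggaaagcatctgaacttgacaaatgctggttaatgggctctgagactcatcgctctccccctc

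**Figure D5:**
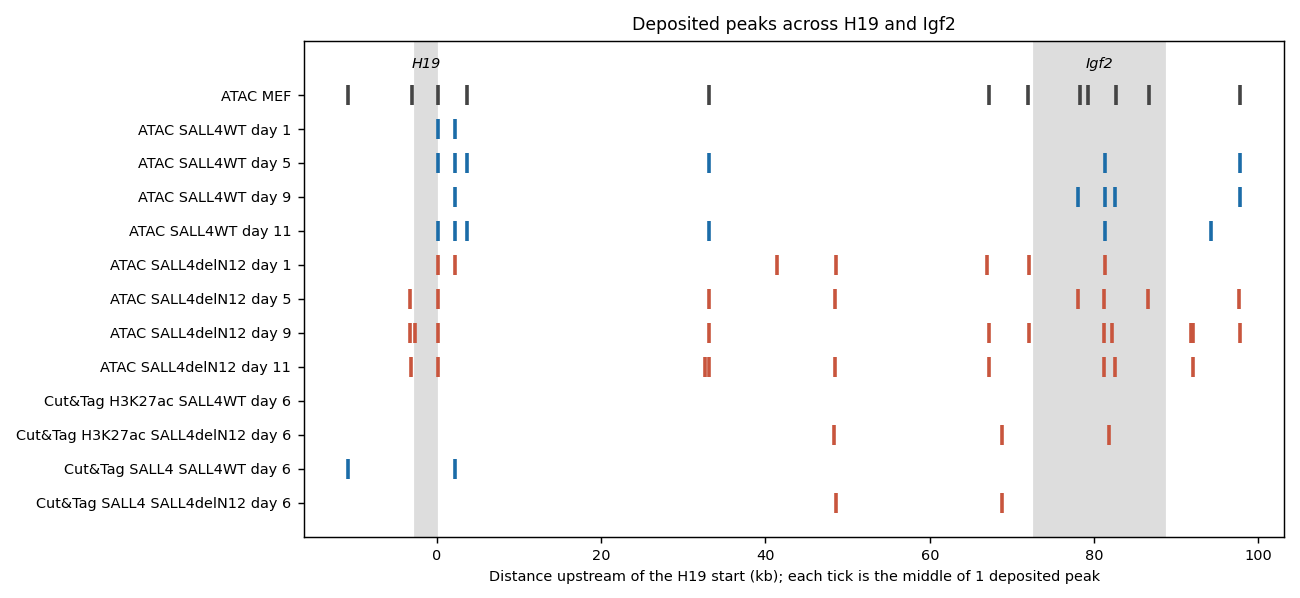
Deposited peaks across H19 and Igf2 in 13 libraries, by distance upstream of the H19 start in kb, with 1 tick at the middle of each peak, grey bands for the genes, blue for SALL4WT, red for SALL4delN12 and black for MEFs. The tick near 2 kb is in all 4 SALL4WT ATAC-seq rows and in 1 of the SALL4delN12 rows, and H3K27ac has 3 peaks with SALL4delN12 and none with SALL4WT.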

How the data were processed

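The submitters' processing notes name Trim Galore 0.6.4, HISAT2 2.2.1 and StringTie 2.2.1 with mm10 for the bulk libraries, deposited as FPKM. The JGES day 7 columns of the factor set table were 0.975 and 0.978 times those of the time course, so they were counted as the same libraries. For scRNA-seq, the authors deposited counts of UMIs per gene and cell (STARsolo, Scanpy filters), with no doublet step stated, and 10749 further columns were not used. Peak lists of ATAC-seq and Cut&Tag were deposited with a score per peak (Bowtie2 2.4.5, SAMtools 1.16.1 and MACS 1.4.2 in those notes), and the authors merged Cut&Tag replicates first. Differences used a pseudocount of 1 and were computed with Python 3.11.15, pandas 2.3.3 and SciPy 1.17.1. The call rule, scaling, intervals and thinning were tested on simulated data. Named genes were the 10 members, the nearest genes by correlation (3 per member sought) and up to 3 per direction from each list. The members, lists and comparisons were chosen with earlier results of these data known. Depth of FPKM and peaks is unknown, so no interval is given for them. Alternatives changed the pseudocount, scaling, filters, thinning, peak window and score. Promoter sequences were matched by symbol in RefSeq for 7 members, with H19, Cdkn1c and Peg10 unmatched. The erythroid marker list is not reported here as a sum, and its gene Hba-a1 is named after its values were seen.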

Additional observations from a re-analysis of the deposited data

Results flagged for a closer look

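Igf2 took opposite courses in the cultures with SALL4 alone. Relative to day 1, its log2 difference was -1.73, -1.73 and -1.08 with SALL4WT and 1.02, 1.14 and 1.10 with SALL4delN12 at days 5, 9 and 11. Peg10 was lower with SALL4delN12 than with SALL4WT at day 1 (-1.17) and higher at day 9 (1.16). With 1 library per condition, neither difference was tested.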

How the results depend on the processing

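No log2 difference of a member that was called changed direction under another pseudocount, filter or scaling, and 1455 of 1480 recomputed differences kept their side of the threshold. Calls were lost at 5 FPKM for Phlda2 (BMP4− day 7 against day 0 and JGEO against JGE) and Meg3 (SALL4delN12 day 5 against day 1), and with median ratio scaling for Cdkn1c (BMP4− day 3 against day 0, 0.91, and SALL4WT day 9 against day 1, -0.95) and, in scRNA-seq, for Igf2 over all cells (0.84) and H19 (0.65) and Igf2r (0.60) in ParE cells. A pseudocount of 0.1 added 10 calls, all of Phlda2 or Meg3. Median ratio scaling of the bulk libraries added 5 calls. Scaling the scRNA-seq samples to the same median ratio gave 3 lower calls in place of 1, adding Grb10 in intermediate cells (-1.01) and Meg3 in ParE cells (-1.09). Without thinning, the difference in the share of cells with a UMI changed sign for H19 over all cells (-0.81 percentage points), Grb10 over all cells (4.79) and Phlda2 in intermediate cells (2.30). Within 1 kb of the start, SALL4WT had a SALL4 peak at 4 members in place of 7. At a score of at least 100, members with a peak were 3 for SALL4 with SALL4WT, 1 for H3K27ac with SALL4WT and 4 for H3K27ac with SALL4delN12. No paired analysis was possible because the groups compared share only replicate number 1, and no replicate could be left out. Days and factor sets were not used as replicates of each other, so no test of a difference averaged over them was run.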
